A study of Mus musculus with 2 samples.

Results

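The genes described here form the ATF4 program and the cytosolic tRNA synthetases of mouse macrophages. They are 32 symbols in 3 groups: 9 factors and effectors of the integrated stress response, 11 enzymes of amino acid and one-carbon metabolism, and 12 cytosolic aminoacyl-tRNA synthetases. The symbols were given as a list, none was missing from the deposited table of 46095 genes, and all 32 passed the filter of a mean of 1 CPM or more over both libraries (CPM being reads per 1000000 after scaling), as did 12495 genes in all. KO macrophages were grown from the bone marrow of C57BL/6 mice labelled TIPE1-/-, which the study's design describes as carrying LyzM-Cre and floxed Tipe1 alleles. WT macrophages came from C57BL/6 mice labelled wild type, described there as floxed Tipe1 without Cre. Both cultures received 100 ng/ml M-CSF, the growth factor that turns marrow progenitors into macrophages, for 5 days. LyzM-Cre acts in cells that use the lysozyme 2 gene, so cells of other lineages in the culture would keep Tipe1. Each genotype had 1 library, and the number of mice behind it is not given in the labels.

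ATF4 is a transcription factor of the basic leucine zipper family. When amino acids run short, the endoplasmic reticulum is stressed, haem is lacking or viral RNA is present, kinases phosphorylate the translation factor eIF2. Most protein synthesis then slows while the Atf4 mRNA is translated more, and ATF4 turns on genes that import and make amino acids and charge tRNAs. Because Atf4 itself is controlled largely at translation, its RNA level says little about the amount of ATF4 protein. In macrophages the same enzymes supply serine, glycine and folate-bound carbon for nucleotide and glutathione synthesis.

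Many ATF4 targets carry the C/EBP-ATF response element near their start, and the windows of 250 bases before and 50 bases after the RefSeq start (GRCm38.p6) were searched on both strands for the letters TGATGNAA. A window was found for 27 of the 32 genes, 26 directly and 1, Mars, by a synonym. Eif4ebp1, Cars, Lars, Nars and Wars were not matched. At least 1 match was present in 9 of the 27 genes, or 33.3%, against 2.85% of 8737 tested genes with a window and 3.97% of all 32851 windows. By group, 5 of 8 synthetase genes, 2 of 8 stress genes and 2 of 11 metabolic genes held it. The list was drawn up from known ATF4 targets, so this share describes how the list was composed. A match is not evidence of binding, and the absence of a match covers only these letters in this window. The cAMP response element TGACGTCA, which reads the same on both strands and shares no match with the other element here, was present only in Ppp1r15a among the 27, against 3.69% of tested genes.

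The promoter stretches of the 3 genes that were counted as higher in the KO library are shown first, from 220 bases before the start to 30 bases after it, on the strand of the gene, with matches to TGATGNAA in either direction in capitals.
Asns, chr6:7693180-7693429, minus strand: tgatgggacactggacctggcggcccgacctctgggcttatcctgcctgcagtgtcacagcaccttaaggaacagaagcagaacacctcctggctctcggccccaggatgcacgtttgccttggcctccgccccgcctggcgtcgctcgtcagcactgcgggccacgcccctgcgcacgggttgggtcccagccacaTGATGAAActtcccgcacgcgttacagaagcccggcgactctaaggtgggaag
Trib3, chr2:152344031-152344280, minus strand: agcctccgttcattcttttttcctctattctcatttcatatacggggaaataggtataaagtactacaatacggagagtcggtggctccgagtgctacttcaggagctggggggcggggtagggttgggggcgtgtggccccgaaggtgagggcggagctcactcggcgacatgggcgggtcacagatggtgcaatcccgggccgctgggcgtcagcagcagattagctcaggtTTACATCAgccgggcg
Mthfd2, chr6:83317575-83317824, minus strand: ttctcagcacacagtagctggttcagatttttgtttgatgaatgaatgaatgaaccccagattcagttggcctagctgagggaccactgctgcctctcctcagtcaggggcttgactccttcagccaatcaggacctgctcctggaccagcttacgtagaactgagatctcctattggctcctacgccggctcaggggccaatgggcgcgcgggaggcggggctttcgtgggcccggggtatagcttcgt
In Asns the match began at position -23, counting the annotated start as 0, and in Trib3 at position 14. Mthfd2 held no match in its window.

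The other matches are given as shorter stretches around the element, because the synthetase genes among them had ratios closer to 1 than Asns and Trib3.
Aars at -112, chr8:111033704-111033763, plus strand: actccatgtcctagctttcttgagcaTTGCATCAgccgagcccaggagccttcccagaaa
Aars at 9, chr8:111033825-111033871, plus strand: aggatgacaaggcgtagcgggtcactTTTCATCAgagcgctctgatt
Gars at -30, chr6:55037945-55038004, plus strand: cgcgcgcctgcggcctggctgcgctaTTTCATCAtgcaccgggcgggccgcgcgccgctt
Iars at 7, chr13:49682111-49682159, plus strand: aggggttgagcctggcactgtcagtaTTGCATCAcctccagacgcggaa
Tars at -15, chr15:11399640-11399699, minus strand: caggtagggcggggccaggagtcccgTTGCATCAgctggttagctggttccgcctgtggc
Yars at 3, chr4:129189880-129189932, plus strand: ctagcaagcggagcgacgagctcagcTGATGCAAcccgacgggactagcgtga
Chac1 at -193, chr2:119351023-119351082, plus strand: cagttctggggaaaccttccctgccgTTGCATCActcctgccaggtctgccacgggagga
Pycr1 at -103, chr11:120643818-120643877, minus strand: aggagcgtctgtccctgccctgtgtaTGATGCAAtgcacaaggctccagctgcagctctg
The form TGATGCAA, read on one strand or the other, occurred in Aars, Iars, Tars, Yars, Chac1 and Pycr1, the form TGATGAAA in Asns, Gars and the match of Aars nearer the start, and TGATGTAA in Trib3.

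The libraries held 15815956 counted reads in KO and 11782664 in WT. Tnfaip8l1, which encodes TIPE1, had 3 reads in KO and 21 in WT, and Lyz2, the locus that carries Cre, stood at 8028 CPM in KO and 14958 CPM in WT. The labelled cell type was borne out by its markers, all 17 of which had reads in both libraries, with a summed level of 52748 CPM in KO and 57307 CPM in WT. Both sums include Lyz2, the Cre locus, and its gap between the libraries is larger than that between the sums. The near-equal sums hide markers that moved apart, with 9 of the 17 above their WT level in the KO library and 8 below it. Adgre1, Lyz2 and Itgam were the farthest from level. Adgre1 stood at 2554 CPM in KO and 1064 CPM in WT, and Itgam at 1467 CPM in KO and 1099 CPM in WT. Stromal RNA was present and unequal: 18 of 19 tested fibroblast markers were at least 1.5-fold lower in the KO library, the 20 listed markers summed to 311 CPM in KO and 2489 CPM in WT, and Tagln had no read in either library. Acta2, Col5a1 and Col1a1 were the farthest from level among those averaging 5 CPM or more, with Col1a1 at 58.9 CPM in KO and 714 CPM in WT. Most cell cycle genes went the other way, with 23 of 30 above their WT level in the KO library and 7 below it. Of the 30, 7 were counted as higher and 0 as lower, against 6.47% and 7.23% of all tested genes. Their sums were 834 CPM in KO and 662 CPM in WT, with Ccnd1, Kif11 and Rrm2 the farthest from level among those averaging 5 CPM or more. Neutrophil markers summed to 683 CPM in KO and 956 CPM in WT (with Cxcr2, Retnlg and Ltf the farthest from level among those averaging 5 CPM or more), and B cell markers to 2.66 CPM in KO and 14.7 CPM in WT, with Igll1 at 0 in both and Vpreb1 at 0 in WT. In bulk RNA, fewer cells of a type and less RNA per cell cannot be told apart, and the part of these cell types in the ratios below was not tested.

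Across the program most genes lay close to level between the libraries. The count of higher and lower genes took those whose CPM differed by 1.5-fold or more and whose exact 95% interval of the read split excluded a ratio of 1. Such intervals, given in parentheses below, cover counting error only, and with 1 library per genotype no difference has a replicate check and no p-value was computed. By this rule 3 of 32 genes were higher in the KO library (Mthfd2, Asns and Trib3), against 6.47% of all tested genes, and 1 was lower (Pycr1), against 7.23%. These shares, 9.38% and 3.12% of the list, are near the background and are not a result about the program. Pycr1 passed the filter of 1 CPM only through the WT library. The median log2 ratio, KO over WT with 0.5 CPM added to both, was 0.17 for the 32 genes and 0.01 for all tested genes. A log2 ratio above 0 was found for 22 of the 32 genes, or 68.8%, and for 51.8% of all tested genes.

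**Figure D1:**
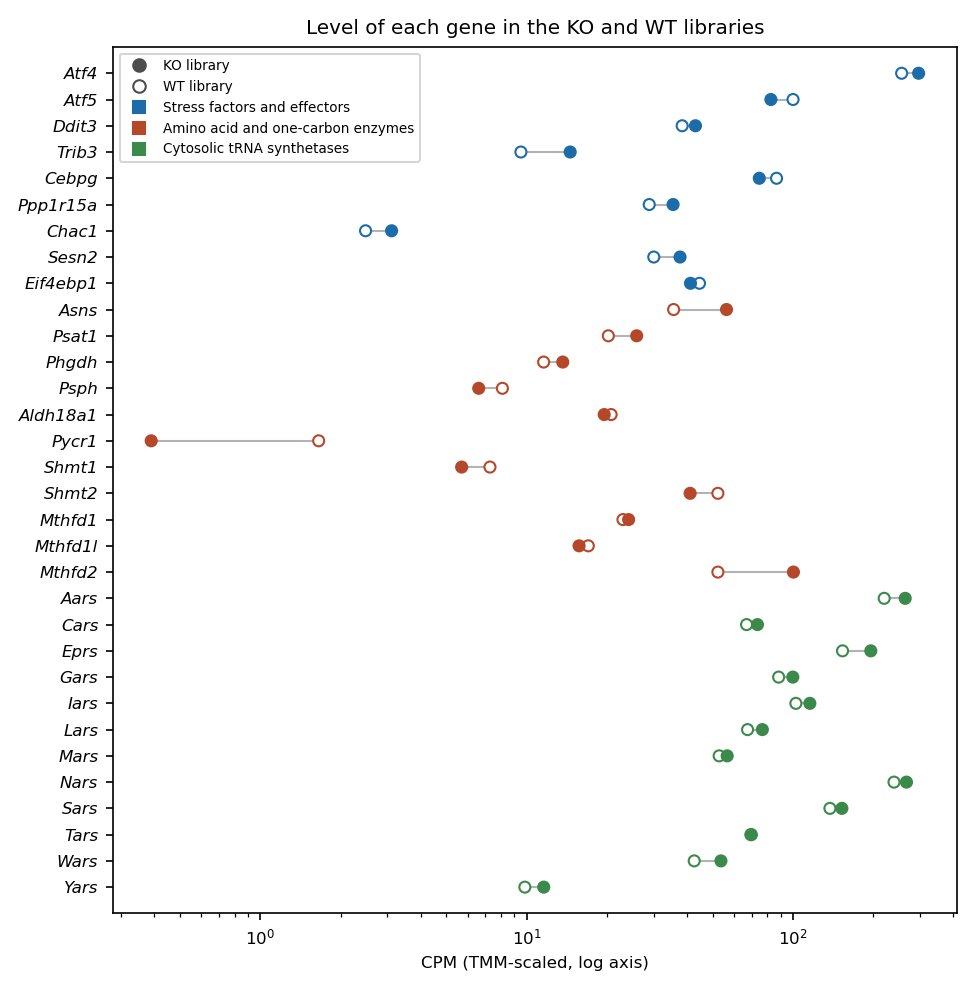
Level of each of the 32 genes in the KO library (filled) and the WT library (open), in CPM on a log axis, coloured by group. Mthfd2 stands at 100.6 CPM in KO and 52.3 CPM in WT, whereas the points of Tars coincide. Those of Pycr1 are the lowest, at 0.389 CPM in KO and 1.66 CPM in WT.

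Atf4 RNA itself was slightly higher in the KO library. It had 4584 reads in KO and 3098 in WT, or 297 CPM in KO and 256 CPM in WT, a ratio of 1.16 (1.11 to 1.21). Atf5, a related factor that is translated under stress by the same mechanism, went the other way at 82.8 CPM in KO and 100.3 CPM in WT, a ratio of 0.825 (0.762 to 0.894). Cebpg, a dimer partner of ATF4, stood at 74.9 CPM in KO and 86.9 CPM in WT, a ratio of 0.861 (0.791 to 0.937). The 3 factors thus did not share a direction, and none reached 1.5-fold.

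Ddit3, which encodes CHOP, a factor associated with cell death under prolonged stress, had 665 reads in KO and 464 in WT, and its interval included 1 (ratio 1.12, 0.995 to 1.27). Trib3, a pseudokinase that restrains ATF4 and CHOP in a feedback loop, was the 1 stress gene counted as higher, with 225 reads in KO and 115 in WT, or 14.6 CPM in KO and 9.52 CPM in WT, a ratio of 1.53 (1.22 to 1.93). That ratio sits just above the limit of 1.5, and Trib3 was no longer counted when CPM was scaled by total counts. Ppp1r15a, which encodes GADD34, the phosphatase subunit that reverses eIF2 phosphorylation, was at 35.5 CPM in KO and 28.9 CPM in WT, a ratio of 1.23 (1.07 to 1.41).

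The effectors of the response also differed little. Sesn2, an inhibitor of mTORC1 that senses leucine, stood at 37.7 CPM in KO and 30.1 CPM in WT, a ratio of 1.26 (1.10 to 1.43). Chac1, which breaks down glutathione, had 48 reads in KO and 30 in WT, too few to resolve a direction (ratio 1.253, 0.778 to 2.05). Eif4ebp1, a translation repressor under mTORC1, was at 41.3 CPM in KO and 44.6 CPM in WT, and its interval included 1. Over the 9 stress genes the median log2 ratio was 0.21, with intervals above 1 for 4 genes, below 1 for 2 and including 1 for 3. Over all tested genes the interval lay above 1 for 22.8% and below 1 for 18.4%.

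**Figure D2:**
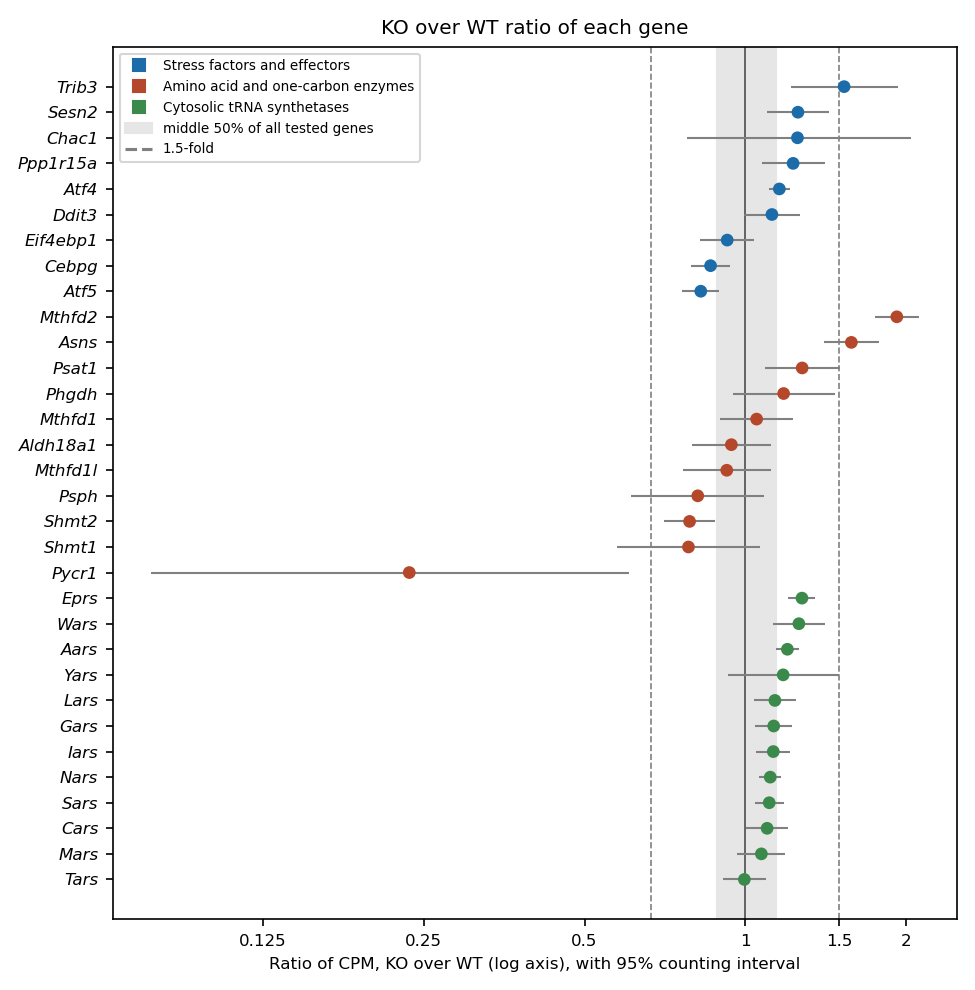
Ratio of CPM, KO over WT, on a log axis for each gene, with its 95% counting interval, ordered by ratio within each group. The grey band spans the middle 50% of all tested genes and the dashed lines mark 1.5-fold; the synthetases sit between 0.996 and 1.28, while the metabolic enzymes spread from 0.235 for Pycr1 to 1.92 for Mthfd2.

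The metabolic enzymes were the most divided group. Asns, which makes asparagine from aspartate and glutamine and is a classic ATF4 target (GRCm38 chromosome 6, 7675169 to 7693254), had 870 reads in KO and 431 in WT, or 56.4 CPM in KO and 35.7 CPM in WT. Its ratio was 1.58 (1.41 to 1.78). Of the serine synthesis enzymes, Phgdh, which catalyses the first step, stood at 13.7 CPM in KO and 11.6 CPM in WT, and its interval included 1 (ratio 1.18, 0.948 to 1.47). Psat1, the second step, was at 25.9 CPM in KO and 20.3 CPM in WT, a ratio of 1.28 (1.09 to 1.505). Psph, the last step, had 102 reads in KO and 98 in WT and an interval that included 1 (ratio 0.815, 0.611 to 1.09). No serine synthesis enzyme reached 1.5-fold.

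The mitochondrial folate enzymes differed from one another. Mthfd2, a dehydrogenase and cyclohydrolase of mitochondrial folate (GRCm38 chromosome 6, 83305691 to 83325908), had the largest ratio of the 32 genes, with 1552 reads in KO and 632 in WT, or 100.6 CPM in KO and 52.3 CPM in WT, a ratio of 1.92 (1.75 to 2.11). Shmt2, which feeds serine carbon into the same mitochondrial pool, had 635 reads in KO and 632 in WT, and at 41.2 CPM in KO and 52.3 CPM in WT its ratio was 0.787 (0.703 to 0.879). Mthfd1l, which releases formate from that pool, was at 15.7 CPM in KO and 17.1 CPM in WT, with an interval that included 1 (ratio 0.923, 0.764 to 1.12). The counting intervals of Mthfd2 and Shmt2 lie on opposite sides of 1.

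The cytosolic counterparts were near level or not resolved. Mthfd1, the trifunctional cytosolic enzyme, stood at 24.2 CPM in KO and 23.0 CPM in WT, a ratio of 1.05 (0.897 to 1.23). Shmt1 had 88 reads in each library, a ratio of 0.783 (0.576 to 1.06) after scaling, close to that of Shmt2. Per kb of annotated exon, the level of Mthfd2 was 5.30 times that of Mthfd1 in the KO library and 2.90 times in the WT library, while the level of Shmt2 was 9.01 times that of Shmt1 in KO and 8.97 times in WT. The exon length used joins all annotated isoforms, so the level of one gene over another is approximate, whereas its comparison between the libraries does not depend on length.

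Of the proline synthesis enzymes, Aldh18a1, which makes the first intermediate from glutamate, was at 19.6 CPM in KO and 20.8 CPM in WT, and its interval included 1 (ratio 0.942, 0.794 to 1.12). Pycr1, the mitochondrial reductase of the last step (GRCm38 chromosome 11, 120635712 to 120643769), had 6 reads in KO and 20 in WT, or 0.389 CPM in KO and 1.66 CPM in WT, which is 4.26-fold lower (1.65 to 13.0). The interval is wide because it rests on 26 reads, and at a required mean of 10 CPM Pycr1 is not tested. Its mean of 1.02 CPM passed the filter of 1 CPM only through the WT library. With so low a KO level, only a gene higher in WT could pass, so its being counted as lower says little by itself. Whether reads of Pycr1 were left out at counting is not known from the labels. Fibroblast markers were lower beside it (summed level 311 CPM in KO and 2489 CPM in WT), and their part in this ratio was not tested. Over the 11 metabolic genes the median log2 ratio was -0.08, but 0.15 over the 8 that averaged 10 CPM or more, so the sign of this median depends on the filter.

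The 12 cytosolic tRNA synthetases had small ratios on one side. They ran from 0.996 (0.909 to 1.09) for Tars, which charges threonine tRNA, to 1.28 (1.20 to 1.35) for Eprs, which charges both glutamate and proline tRNA. None was counted in either direction. The log2 ratio was above 0 for 11 of the 12 genes and their median was 0.17, beside 51.8% and 0.01 for all tested genes. The counting interval lay above 1 for 9 and included 1 for 3 (Mars, Tars and Yars). Beside 22.8% of all tested genes, the interval lay above 1 for 28.5% of the 8379 that averaged 10 CPM or more, which are counted more precisely. It lay below 1 for 18.2% of these 8379, and the log2 ratio was above 0 for 55.1% of the 8379. The count of 9 intervals above 1 holds for TMM scaling only. Some lower bounds lie close to 1 (1.003 for Cars, 1.04 for Lars and for Sars, 1.05 for Gars and for Iars). With total counts the ratios fell to 1.05 for Cars, 1.08 for Lars, 1.06 for Sars, 1.08 for Gars and 1.07 for Iars. Their lower bounds fall by the same factor, to below 1. The intervals above 1 were not counted again there, but fewer than 9 remain. Whether the shift of these 12 synthetases would recur in another pair of cultures cannot be read from 1 library per genotype.

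The best-measured synthetases illustrate its size. Aars, for alanine, had 4081 reads in KO and 2664 in WT, or 264 CPM in KO and 221 CPM in WT, a ratio of 1.20 (1.14 to 1.26). Nars, for asparagine, had 4126 reads in KO and 2900 in WT, or 267 CPM in KO and 240.1 CPM in WT, a ratio of 1.11 (1.06 to 1.17). Eprs had 3031 reads in KO and 1858 in WT, or 196 CPM in KO and 154 CPM in WT. Both Aars and Eprs were thus above Nars in ratio, although the intervals of Aars and Nars overlap.

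Sars, for serine, stood at 153 CPM in KO and 138 CPM in WT, a ratio of 1.11 (1.04 to 1.18). Iars, for isoleucine, was at 116 CPM in KO and 103 CPM in WT, a ratio of 1.13 (1.05 to 1.21), and Lars, for leucine, at 76.9 CPM in KO and 67.6 CPM in WT, a ratio of 1.14 (1.04 to 1.24). Gars, for glycine, was at 100.1 CPM in KO and 88.5 CPM in WT, a ratio of 1.13 (1.05 to 1.22). These 4 genes have ratios that their intervals do not separate.

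Wars, for tryptophan, which is also induced by interferon gamma, stood at 53.7 CPM in KO and 42.6 CPM in WT, a ratio of 1.26 (1.13 to 1.41). Cars, for cysteine, was at 73.7 CPM in KO and 67.1 CPM in WT, a ratio of 1.10 with an interval of 1.003 to 1.20. Mars, for methionine, was at 56.7 CPM in KO and 52.9 CPM in WT (ratio 1.07, 0.967 to 1.19). Yars, for tyrosine, had 179 reads in KO and 119 in WT (ratio 1.18, 0.929 to 1.497), and Tars stood at 69.6 CPM in KO and 69.9 CPM in WT.

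Ordered by ratio, the 32 genes formed a run in which every gene overlapped its neighbour within counting error, from Mthfd2 at the top to Pycr1 at the bottom. Among the 27 genes with a promoter window, the 9 with a TGATGNAA match had a median log2 ratio of 0.23 and a range of -1.28 to 0.65. The 18 without it had a median of 0.12 and a range of -0.34 to 0.94. The ranges overlap, with the largest ratio in a gene without the match and the smallest in a gene with it.

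**Figure D3:**
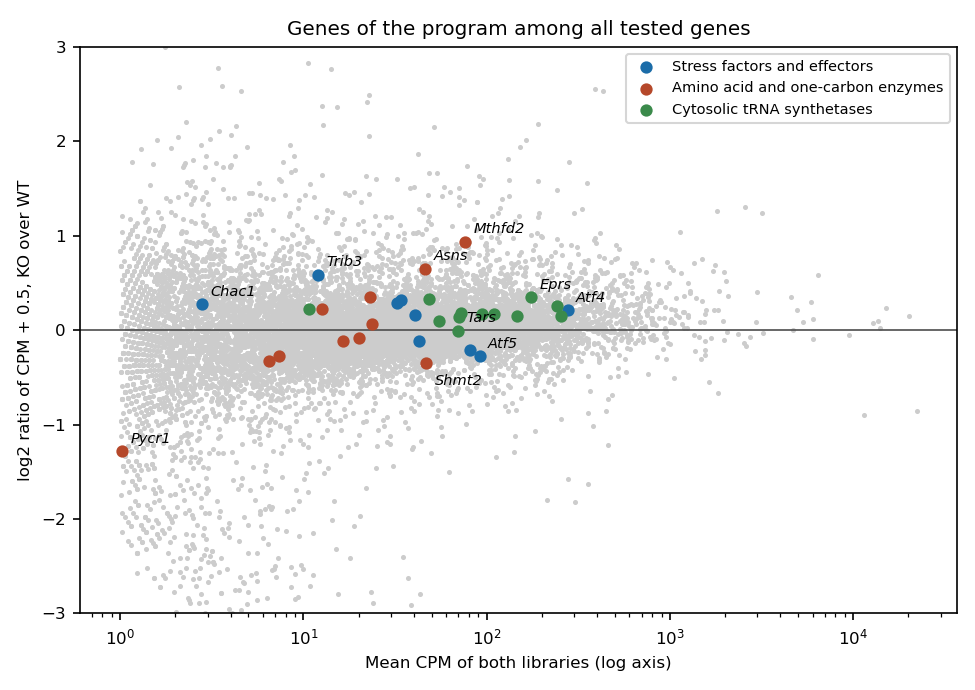
The log2 ratio of CPM + 0.5, KO over WT, against the mean CPM of both libraries (log axis) for all tested genes in grey and the 32 genes in colour; 78 tested genes beyond 3 in either direction are outside the axis. The synthetases form a flat band just above 0, with Mthfd2 and Asns above them and Pycr1 at the low-count edge.

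Genes that act with the program were taken from companion lists. The counts in every such list below stand beside 6.47% of all tested genes counted as higher and 7.23% as lower. The lists are small, and whether any count departs from these shares was not tested. Of 8 tested cytosolic synthetases outside the list, none was counted in either direction, the median log2 ratio was 0.04 and 5 were above 0. The counting interval lay above 1 for 1 of these 8 and below 1 for 1, against 9 and 0 of the 12 in the list. Their summed level was 452 CPM in both libraries. Farsb, a phenylalanine synthetase subunit, had the largest ratio at 1.37 (1.16 to 1.63), and Dars, for aspartate, the smallest at 0.853 (0.781 to 0.931). With these 8 added, 16 of 20 cytosolic synthetases were above 0 and the median was 0.15. The 4 genes of the synthetase scaffold and tRNA export (Aimp1, Aimp2, Eef1e1 and Xpot) lay between -0.18 and 0.19 on the log2 scale.

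The 17 mitochondrial synthetases had a median log2 ratio of -0.09, with 1 counted as higher and 2 as lower. Lars2 was at 112 CPM in KO and 73.5 CPM in WT, a ratio of 1.52 (1.40 to 1.65). Vars2 was 2.16-fold lower (1.53 to 3.07), at 3.56 CPM in KO and 7.70 CPM in WT. Aars2 was 1.58-fold lower (1.27 to 1.98), at 9.72 CPM in KO and 15.4 CPM in WT.

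Upstream of ATF4, 1 of 16 genes for the eIF2 kinases and eIF2 factors was counted, with a list median of 0.08. Eif2ak2, the double-stranded RNA kinase PKR, which interferon also induces, was at 156 CPM in KO and 103 CPM in WT, a ratio of 1.51 (1.41 to 1.62). Among 11 tested amino acid transporters, 2 were counted as higher and 2 as lower, with a median of -0.17. Slc7a11, which imports cystine, stood at 106 CPM in KO and 59.4 CPM in WT, a ratio of 1.79 (1.64 to 1.95). Slc7a1, which imports arginine and lysine, was at 55.7 CPM in KO and 33.9 CPM in WT, a ratio of 1.64 (1.46 to 1.85). Slc1a4, which carries neutral amino acids, was 1.93-fold lower (1.35 to 2.76), and Slc6a9, a glycine transporter with 32 reads in KO and 58 in WT, was also counted as lower.

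Of 22 tested further ATF4 targets, 1 was counted as higher and 5 as lower, against 6.47% and 7.23% of all tested genes. Stc2, 1 of the 5, had 10 reads in KO and 19 in WT. At a mean of 1.11 CPM it passed the filter of 1 CPM only through the WT library. Nars2 is among the 22 and also among the mitochondrial synthetases above. The median of the 22 was 0.04. Gdf15, a secreted stress cytokine, was at 28.9 CPM in KO and 13.7 CPM in WT, a ratio of 2.12 (1.77 to 2.55). Ddit4, an mTORC1 inhibitor that hypoxia also induces, was at 3.11 CPM in KO and 13.2 CPM in WT, which is 4.23-fold lower (3.05 to 5.97). Vegfa, the vascular growth factor, was 1.57-fold lower (1.51 to 1.63), at 285 CPM in KO and 446 CPM in WT. Atf3, a stress factor under ATF4, stood at 321 CPM in KO and 214 CPM in WT, just below the limit at 1.496-fold.

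Other one-carbon and amino acid enzymes gave 0 counted as higher and 3 as lower among 23, with a median of -0.02. Aldh1l2, a mitochondrial folate dehydrogenase, was 7.31-fold lower (4.75 to 11.7), with 25 reads in KO and 143 in WT. Glul, which makes glutamine, was 1.84-fold lower (1.77 to 1.92), at 252 CPM in KO and 464 CPM in WT. Tyms, the thymidylate synthase gene, had 41 reads in KO and 52 in WT. None of the 20 genes for endoplasmic reticulum chaperones and their ATF6 and XBP1 regulators was counted, with a median of 0.12 and 16 above 0. The interval lay above 1 for 10 of the 20 and below 1 for 2, beside 22.8% and 18.4% of all tested genes. Hspa5, which encodes the chaperone BiP, had the largest ratio of the 20 at 530 CPM in KO and 403 CPM in WT, or 1.32.

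**Figure D4:**
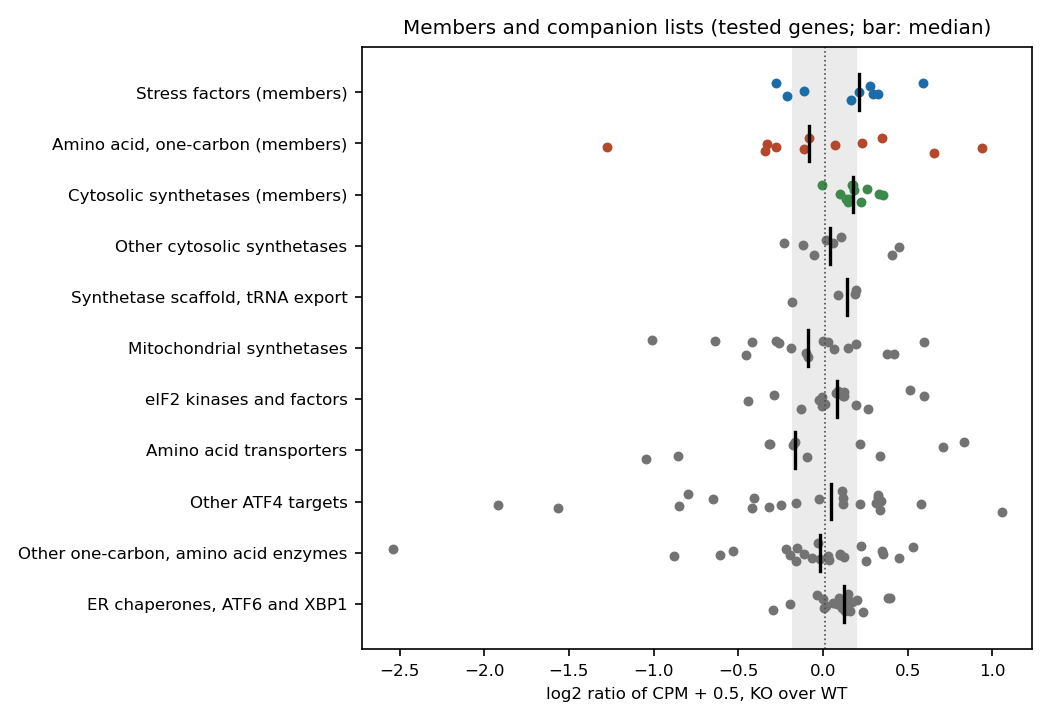
The log2 ratio of CPM + 0.5, KO over WT, for the tested genes of the 3 groups (colour) and 8 companion lists (grey), with a bar at each median; the band spans the middle 50% of all tested genes and the dotted line their median. Of the 3 coloured groups the synthetases have the narrowest spread, whereas the transporters and other ATF4 targets spread to both sides.

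Exons of 12 of the 32 genes overlap an exon of another gene in the GENCODE M21 annotation of GRCm38 (Atf5, Ddit3, Cebpg, Ppp1r15a, Psph, Shmt1, Shmt2, Mthfd1, Aars, Cars, Mars and Yars). Ddit3 and Mars, neighbours on chromosome 10 read from opposite strands, share 68 bases. Neither the strand setting nor the counting program is given in the sources used here, and reads in such stretches may have been assigned to either gene or dropped. Mthfd2, Asns, Trib3 and Pycr1 have no such overlap. Phgdh has a copy in the table that is named as its pseudogene, and its count is uncertain for that reason. Pseudogene copies under other kinds of names were not searched for, for any of the 32 genes.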

How the data were processed

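Trizol-extracted RNA was sequenced as Illumina libraries, per the labels' protocols. The authors deposited 1 table of raw read counts per gene symbol, with 1 column for the KO library and 1 for the WT library. HISAT2 and GRCm38 are named, without a version or role, per the submitters' processing notes. How reads were counted (program, annotation, strand, filters) is not given in the sources used here.

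The counts were divided by TMM effective library sizes (edgeR 4.0.16 in R 4.3.3) and given per 1000000 effective reads (CPM). A gene was tested if it averaged 1 CPM or more. Log2 ratios add 0.5 CPM to both libraries, which understates the change of low genes, whereas ratios add nothing. The 95% interval is the exact Clopper-Pearson interval of the read split (scipy 1.17.1). No molecular identifiers are mentioned, so some reads may be PCR copies, and intervals cover counting error only. A count of 3 equals 0.194 CPM in KO and 0.248 CPM in WT. With 1 library per genotype no model has residual degrees of freedom, and no p-value was computed.

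The members, lists and rules were chosen with earlier results of these data known. The text names all members, up to 4 counted genes averaging 5 CPM or more per companion list, and up to 3 per marker list. Farsb, Dars, Hspa5, Atf3, Stc2, Nars2, Tyms and Slc6a9 were chosen after their values were seen. So were the genes named as being at 0 and the low-count genes in the closing section. Alternatives were scaling by total counts, DESeq2 1.42.0 size factors or TMM without stromal genes, another added CPM, filter or fold, and a thinned KO library. The calculation was tested on simulated data. Promoter sequences came from RefSeq (GRCm38.p6), gene positions and exon lengths from GENCODE M21.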

Additional observations from a re-analysis of the deposited data

How the results depend on the processing

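No paired analysis was possible because there was a single library of each genotype. Of 203 values computed under other settings, 187 stayed close to the main value. Close means within 1.5 times for a count of genes, inside the counting interval for the ratio of a member, and between the medians of the members' lower and upper interval bounds for a median. Some of the 203 could not move, so the 187 overstate how well the results held. The added CPM does not enter the counts of genes, and all members already pass the filter that one setting drops. The ratios of the 4 counted members (Mthfd2, Asns, Trib3 and Pycr1) kept their direction in the settings that changed the scaling or the depth. A change of scaling multiplies all ratios by the same factor, here too near 1 to turn these. With an average of 10 CPM required, 412 genes were counted as higher and 223 as lower, with 0 members lower since Pycr1 is then not tested. At a lower limit of 0.32 on the log2 scale, 1514 genes were higher and 1427 lower, with 7 members higher (Sesn2, Psat1, Eprs and Wars added) and 2 lower (Shmt2 added). These are beside 12.1% and 11.4% of all tested genes. At 2-fold, 323 genes were higher and 597 lower, with 0 members higher. With the nearer interval bound required at 1.5-fold, 357 genes were higher and 509 lower, and 1 member, Mthfd2, was higher. Trib3 was not counted with total counts or in the thinned library.

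Over the settings run, the median log2 ratio of the 12 synthetases stayed between 0.10 (total counts, where the median of all tested genes was -0.06) and 0.18 (median-of-ratios). With median-of-ratios scaling all 12 synthetases were above 0. The median of the metabolic genes changed sign, to 0.15 (inside those bounds), with an average of 10 CPM required. Total counts moved the ratios of Atf4 to 1.10, Aars to 1.14 and Nars to 1.06. Depth limits Pycr1, Chac1, Shmt1 and Psph, whose intervals are wide.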

Other observations

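A few genes of the companion lists were below the filter and are given as reads only. Vars, the cytosolic valine synthetase gene, had 8 reads in KO and 1 in WT, far fewer than the other synthetase genes. Cth, which makes cysteine from cystathionine, had 4 reads in KO and 19 in WT, and Cbs, the preceding enzyme, had no read in either library. Fgf21 had no read in either library. The arginine transporter gene Slc7a3 had 12 reads in KO and 5 in WT. Whether reads of these genes were left out at counting is not known from the labels.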
